A study of Rattus norvegicus with 6 samples.

Results

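The 9 genes Ager, Aqp5, Hopx, Pdpn, Cav1, Cav2, Rtkn2, Clic5 and Emp2 are used as markers of alveolar type 1 cells. They were taken by gene name from the transcript table, where they made up 9 of 21210 gene names with an annotated transcript and 47 of 70376 transcripts. Lung tissue came from Sprague–Dawley (SD) rats that were 7 weeks old at the start. The PF (pulmonary fibrosis) model group received a single intratracheal dose of bleomycin at 7 mg/kg, and the control group received the same volume of saline. Lungs of both groups were taken on day 28, and 3 rats per group gave 1 rRNA-depleted RNA library each. The model is limited to a single dose and a single day, each library holds all the cells of a piece of lung, and which lobe was taken is not given in the sources used here. Beyond 1 library per rat nothing says how far rats shared a cage, a day or a preparation. The test p-values set a group difference against the spread within the groups and take these 6 samples as independent.

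Alveolar type 1 cells are thin, flat cells that cover most of the gas exchange surface, and they share a basement membrane with capillary endothelium. They are replaced after injury from alveolar type 2 cells, the surfactant-making cells of the alveolus, by way of a transitional state. Their markers include a surface receptor (Ager), a water channel (Aqp5), membrane glycoproteins and tetraspan proteins (Pdpn, Emp2), the coat of caveolae (Cav1, Cav2), a protein linked to the actin cytoskeleton (Clic5), Rtkn2 and a nuclear homeodomain protein that does not bind DNA (Hopx). None is exclusive to these cells: Cav1, Cav2, Clic5 and Emp2 are also made by endothelium, and Pdpn by lymphatic endothelium and mesothelium. In bulk tissue, fewer cells of a type and less RNA per cell cannot be told apart.

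The values are FPKM, fragments per kilobase of transcript scaled to the mapped fragments of the library, summed over the transcripts of a gene name. Between 5.37 and 6.17 gigabases of reads lay on the transcripts of a sample. Each member gene received from 4742 to 70182 reads in a sample, estimated from coverage and a read length of 150 bases. Several cardiac muscle genes stood apart in model sample 3, where Myh6 (cardiac myosin heavy chain) reached 5.11 FPKM against at most 0.0339 elsewhere. Actc1 was less apart, at 13.8 FPKM against 5.18 to 9.78 FPKM elsewhere. Nppa was not apart, at 0.150 FPKM against 0.167 FPKM in model sample 1. The median difference of the members is therefore also given without model sample 3 below.

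Summed over all transcripts of their names, the type 1 cell genes were among the abundant genes, and no member was called between the groups. Over the 6 samples, from 97.2% (Cav2) to 99.7% (Ager) of the 19203 genes tested had a lower mean FPKM. With annotated transcripts alone the means of Hopx and Rtkn2 were 6.79 and 2.02 FPKM, so their place rests on assembled transcripts. In both groups the order of mean summed FPKM was Ager, Clic5, Cav1, Emp2, Aqp5, Pdpn, Rtkn2, Hopx and Cav2. Neighbours in this order were not always separated: the ranges of Pdpn and Rtkn2, of Rtkn2 and Hopx, and of Hopx and Cav2 overlapped in both groups, those of Ager and Clic5 overlapped in the control and those of Cav1 and Emp2 in the model. Clic5 and Cav1, Emp2 and Aqp5, and Aqp5 and Pdpn had ranges that were apart in each group. The coefficient of variation over the 6 samples was lowest for Cav1 at 4.92% and highest for Cav2 at 20.01%. With annotated transcripts alone the order over the 6 samples was Ager, Clic5, Emp2, Cav1, Aqp5, Cav2, Pdpn, Hopx and Rtkn2.

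**Figure D1:**
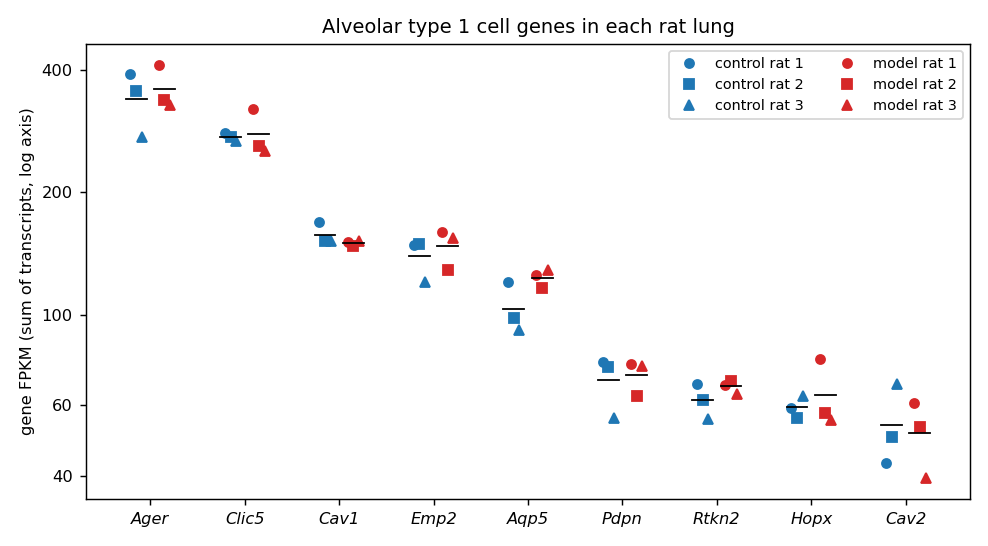
Gene FPKM on a log axis for each of the 9 type 1 cell genes in the 3 control (blue) and 3 model (red) rats, with group means as black bars and the marker shape giving the rat number. The genes run from Ager, at 273 to 412 FPKM, down to Cav2, at 39.6 to 67.4 FPKM, and red and blue points overlap for every gene.

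Ager encodes the receptor for advanced glycation end products, which lies on the basal side of type 1 cells. Its FPKM were 391, 354 and 273 in the control and 412, 338 and 328 in the model samples. Control sample 3 was the lowest of the 6 and model sample 1 the highest, and the other model samples lay inside the control range. The group means were 339 ± 60.3 and 359 ± 45.8 FPKM (SD, n = 3 each), a log2 difference on the log2(FPKM + 1) scale, model minus control, of 0.09 with an SE of 0.17 and a 95% confidence interval from -0.33 to 0.51 (limma, adjusted p = 0.969).

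Aqp5 encodes a water channel of the apical membrane. Its FPKM were 120, 98.2 and 91.8 in the control and 125, 116 and 129 in the model samples. Control samples 2 and 3 were lower than each model sample, while control sample 1 lay above model sample 2, so that the groups overlapped by that single pair. The means were 103 ± 14.9 and 123 ± 6.54 FPKM (SD, n = 3 each). The log2 difference of 0.26 (SE 0.12, 95% confidence interval -0.02 to 0.54) was the largest among the members and had the smallest unadjusted p, which stayed above 0.05 (limma, adjusted p = 0.934). As a ratio on the FPKM + 1 scale, this interval ran from 0.984 to 1.46.

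Pdpn (podoplanin, a mucin-like glycoprotein of the apical surface) and Emp2 (a tetraspan membrane protein) had similar patterns. Pdpn FPKM were 76.7, 74.4 and 55.7 in the control and 75.5, 63.2 and 74.9 in the model samples. Emp2 FPKM were 148, 149 and 120 in the control and 160, 129 and 154 in the model samples. For both genes control sample 3 was the lowest of all 6 samples and model sample 2 the lowest of its group, and the groups overlapped. The log2 differences were 0.06 (SE 0.14, 95% confidence interval -0.29 to 0.40; limma, adjusted p = 0.981) for Pdpn and 0.08 (SE 0.13, interval -0.23 to 0.40; limma, adjusted p = 0.960) for Emp2.

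Cav1 and Cav2 encode caveolins, which form the coat of caveolae together. Cav1 FPKM were 169, 151 and 152 in the control and 151, 147 and 152 in the model samples. Only control sample 1 stood above the rest, and the other 5 samples spanned 147 to 152 FPKM. Cav2 FPKM were 43.2, 50.0 and 67.4 in the control and 60.7, 52.8 and 39.6 in the model samples. Its highest sample was control sample 3 and its lowest model sample 3, and the samples in between were mixed. These were the only 2 members with a mean lower in the model, by a log2 difference of -0.07 (SE 0.08, 95% confidence interval -0.27 to 0.13; limma, adjusted p = 0.946) for Cav1 and of -0.06 (SE 0.21, interval -0.57 to 0.44; limma, adjusted p = 0.989) for Cav2.

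Rtkn2 was measured beside Clic5, which encodes a chloride intracellular channel protein that associates with the actin cytoskeleton. Rtkn2 FPKM were 67.7, 61.6 and 55.4 in the control and 67.2, 68.6 and 63.9 in the model samples. Control samples 2 and 3 lay below the model range and control sample 1 inside it. Clic5 FPKM were 279, 273 and 266 in the control and 321, 259 and 253 in the model samples. The controls lay close together, with model sample 1 above them and the other model samples below. The log2 differences were 0.12 (SE 0.09, 95% confidence interval -0.10 to 0.34; limma, adjusted p = 0.934) for Rtkn2 and 0.02 (SE 0.12, interval -0.28 to 0.31; limma, adjusted p = 0.997) for Clic5.

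Hopx encodes a small homeodomain protein that acts through other transcription factors. Its FPKM were 58.8, 55.6 and 63.0 in the control and 77.9, 57.4 and 55.0 in the model samples. Model sample 1 was the highest and model sample 3 the lowest of the 6. The log2 difference was 0.08 (SE 0.14, 95% confidence interval -0.26 to 0.43; limma, adjusted p = 0.966).

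Of the 9 members, 0 were called at p of at most 0.05 with an absolute log2 ratio of group means of at least 1, against 1.53% of the genes tested. With the limma test 0 of 9 had an unadjusted p of at most 0.05, against 4.9% of the genes tested, and 0 had an adjusted p below 0.05, against 0.0104%. The groups did not overlap for 0 of 9 members, against 10.7% of the genes tested (4.86% higher and 5.83% lower in the model). The adjusted p of the members lay between 0.934 and 0.997. The bounds of the 9 intervals, as ratios of model to control, lay between 0.673 (Cav2) and 1.46 (Aqp5). Each is a separate 95% interval for the sum over all transcripts of a name, and other sums give other bounds. For the annotated Hopx transcript alone the log2 interval ran from -0.79 to 0.35. For each of the 9 members the difference between group means was smaller than the range of the 3 controls. It was smaller than the range of the 3 model samples for 6 of 9, and larger in size for Aqp5 (19.9 against 12.6 FPKM), Cav1 (-7.38 against 4.47 FPKM) and Rtkn2 (5.06 against 4.66 FPKM).

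The members lay slightly above 0 on balance. Their median log2 difference was 0.084, and 7 of 9 were above 0, against a median of -0.0064 over the genes tested with 47.7% above 0. Among the 4987 genes with a mean of at least 10 FPKM the median was 0.0031, and the median size of a difference without its sign was 0.102, against 0.084 for the members. The balance rested on single libraries. Without control sample 3 the median of the members was -0.0010, and without model sample 1 it was -0.0112, with 4 of 9 members above 0 in either case. Without model sample 3, the library with the high Myh6, the median was 0.104, with 8 of 9 members above 0. Cav2 was then above 0, at 0.10 (limma, adjusted p = 0.990), against -0.06 over all 6 samples.

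**Figure D2:**
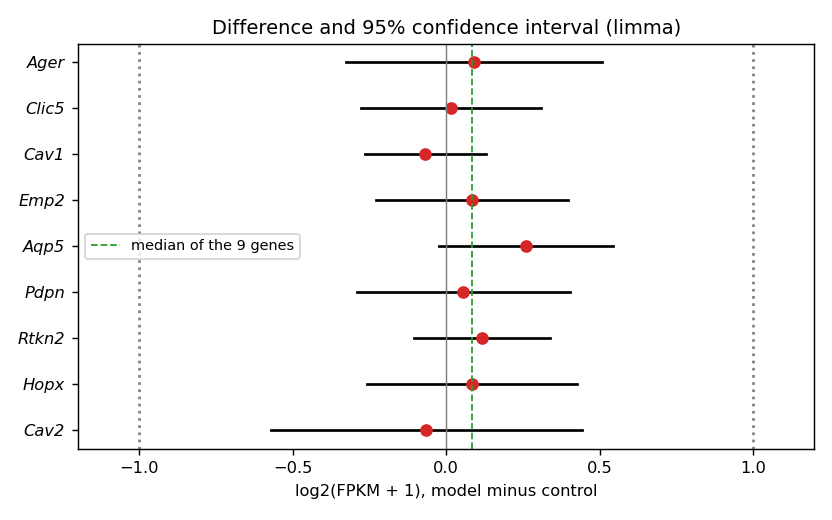
Difference in log2(FPKM + 1), model minus control, for each type 1 cell gene (red point) with its 95% confidence interval (black line), the median of the 9 genes (green dashed line) and differences of 1 log2 unit either way (dotted lines). Each interval contains 0 and stays inside the dotted lines, and Aqp5 lies farthest to the right at 0.26.

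The same samples were high or low for several members at once. In model sample 1, 8 of 9 members lay above their own mean over the 6 samples, and it held the highest value of 4 members. In control sample 3, 7 of 9 lay below their own mean, and it held the lowest value of 5 members. The median deviation of the members was 0.16 log2 units in model sample 1, 0.08 in control sample 1 and -0.20 in control sample 3, and it lay between -0.06 and -0.02 in the other 3 samples. The median deviation over all genes tested stayed between -0.022 and 0.012 in the 6 samples. Cav2 went the other way in the controls: its highest value fell in control sample 3, where Ager, Aqp5, Pdpn, Rtkn2 and Emp2 had their lowest.

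**Figure D3:**
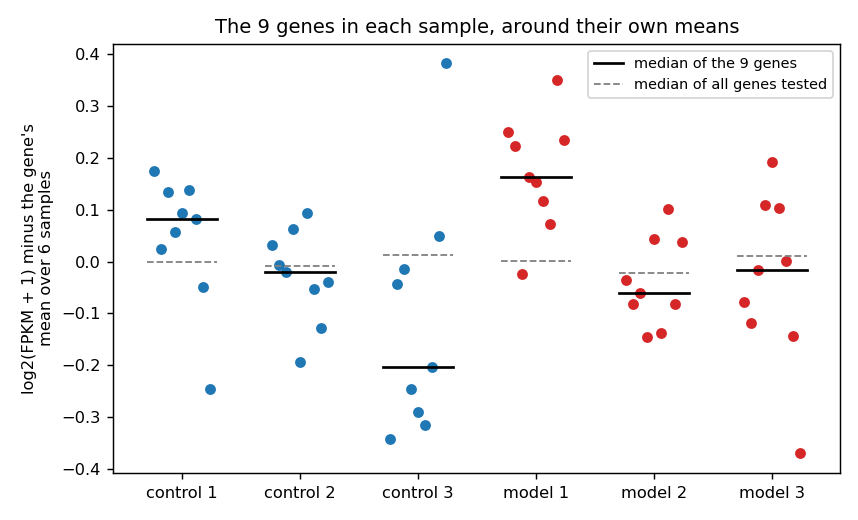
log2(FPKM + 1) of each of the 9 genes (points, in the order Ager to Cav2 from left to right) minus the gene's own mean over the 6 samples, with the median of the 9 genes (black bar) and of all genes tested (grey dashed line). Control 3 has the lowest median, -0.20, and model 1 the highest, 0.16, while the all-gene medians stay near 0.

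The profile of Clic5 lay nearest to the mean profile of the 9 members, with a root mean square difference of 0.0537 log2 units over the 6 samples, and that of Cav2 farthest, at 0.275. Outside the members, the genes nearest to that mean profile were Prepl at 0.0129, Fbxo38 at 0.0230, Mink1 at 0.0234, Pola1 at 0.0251 and Cers5 at 0.0266. The median over the 13881 candidate genes was 0.183. Of these candidates, 88 lay closer to the mean profile than Clic5, 2347 closer than Ager and 10599 closer than Cav2. The mean profile is itself built from the members. Prepl showed the same order of high and low samples, with 24.7, 23.2 and 21.8 FPKM in the control and 26.4, 22.7 and 22.9 FPKM in the model samples. This likeness is a description over 6 samples that share their libraries.

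The promoters of the 9 genes were read from RefSeq on the rat assembly GRCr8, as the 250 bases before each start site. All 9 genes matched, Cav1 with 2 start sites. GC content ran from 51.6% (Pdpn) to 83.2% (Aqp5), and the median of the 33469 windows of all genes was 51.2%. The number of CG dinucleotides was 2 for Ager, 41 for Aqp5 and from 8 to 19 in the other 8 windows, against a median of 5. The windows of Ager, the most abundant member, and of Aqp5, the member with the largest difference, are shown because they are the extremes of this measure. Each CG is in capitals, and the sequences read 5′ to 3′ on the gene's strand, for Ager chr20:4155686-4155935 on the minus strand and for Aqp5 chr7:132601278-132601527 on the plus strand.
Ager: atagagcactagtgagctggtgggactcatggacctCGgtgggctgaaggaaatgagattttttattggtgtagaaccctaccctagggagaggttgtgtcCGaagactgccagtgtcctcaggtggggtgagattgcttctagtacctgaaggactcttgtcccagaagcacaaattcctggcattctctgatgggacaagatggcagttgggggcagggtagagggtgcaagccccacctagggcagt
Aqp5: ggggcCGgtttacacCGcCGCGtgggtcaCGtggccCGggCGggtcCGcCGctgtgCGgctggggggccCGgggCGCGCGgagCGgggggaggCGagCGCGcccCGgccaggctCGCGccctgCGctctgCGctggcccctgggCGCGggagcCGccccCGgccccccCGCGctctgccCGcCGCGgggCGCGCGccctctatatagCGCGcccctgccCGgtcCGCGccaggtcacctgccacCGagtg
The Aqp5 window is a dense run of CG dinucleotides, while the window of Ager holds almost none. In the coordinates of the measured transcripts Ager lies on the plus strand, and the reason for this difference from GRCr8 is not known.

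The windows, here with the 50 bases after the start included, were searched on both strands for short letter runs of factors that act in alveolar epithelium. The run GGAATG of TEAD factors was in 0 of 10 member windows and in 14.2% of all windows. The runs CACTTGA and CTCAAG of NKX2-1 were in 0 of 10, against 3.04% and 15.8%, and AGATAA of GATA factors was in 0 of 10, against 11.6%. The run TGANTCA of AP-1, which overlaps none of the others, was in 2 of 10 member windows and in 7.33% of all. Those windows belong to Cav2 (chr4:46582431-46582680, plus strand) and Emp2 (chr10:5866619-5866868, plus strand) and are shown with the match in capitals, starting 145 and 73 bases before the start site.
Cav2: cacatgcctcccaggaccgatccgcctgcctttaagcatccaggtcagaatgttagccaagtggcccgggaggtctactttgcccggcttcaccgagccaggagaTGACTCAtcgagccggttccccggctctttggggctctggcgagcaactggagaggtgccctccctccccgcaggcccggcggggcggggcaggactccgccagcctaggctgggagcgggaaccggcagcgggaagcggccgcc
Emp2: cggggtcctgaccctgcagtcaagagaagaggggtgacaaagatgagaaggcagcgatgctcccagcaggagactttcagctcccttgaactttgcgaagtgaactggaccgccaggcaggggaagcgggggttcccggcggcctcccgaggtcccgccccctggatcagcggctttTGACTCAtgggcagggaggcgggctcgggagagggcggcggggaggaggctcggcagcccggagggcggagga
A match is a description of letters only, and both genes with a match had overlapping groups, with Cav2 below and Emp2 above 0.

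The sum for a gene name hid large differences in what the transcripts were. Of the 47 member transcripts, 17 were annotated and 30 were assembled from the reads. Annotated transcripts carried most of the sum for Cav2 (91.4%), Emp2 (91.2%), Aqp5 (88.0%), Ager (87.6%) and Clic5 (86.3%), and less for Cav1 (73.0%) and Pdpn (61.9%). For Hopx they carried 11.2%, and for Rtkn2 3.18%. Transcripts of the opposite strand carried 51.4% of the Rtkn2 sum, 13.0% of Clic5 and 7.81% of Emp2. The labels name a stranded library kit, but the strand setting of the counting is not given in the sources used here, so reads of the 2 strands cannot be told apart with certainty.

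**Figure D4:**
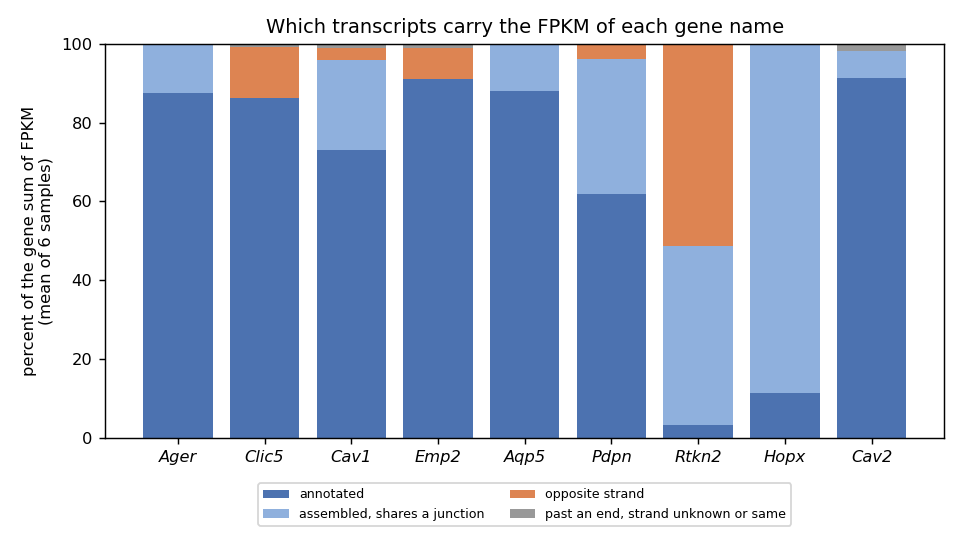
Mean percent of the summed FPKM of each gene name, over the 6 samples, carried by annotated transcripts, by assembled transcripts that share a splice junction with them, by transcripts on the opposite strand, and by transcripts past an end of the gene. Annotated transcripts make up 86.3% or more for Ager, Clic5, Emp2, Aqp5 and Cav2, but 11.2% for Hopx and 3.18% for Rtkn2, where the orange part is 51.4%.

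Rtkn2 (chr20:21932878-22004279, minus strand, in the coordinates of the files, whose build is not given in the sources used here) was the clearest case. Its 2 annotated transcripts together had 1.68, 2.36 and 2.24 FPKM in the control and 1.91, 1.99 and 1.91 FPKM in the model samples. These levels were low and overlapped between the groups. Its 2 assembled sense transcripts, of 12537 and 18879 bases against 3338 bases for the longer annotated one, carried 45.5% of the sum. An opposite-strand transcript of 18091 bases, MSTRG.21786.1, carried 23.2%, and an intronic opposite-strand transcript, MSTRG.21787.1, carried 19.5%. The opposite-strand share was 49.9% ± 0.746 in the control and 52.8% ± 1.72 in the model (SD, n = 3 each) and did not overlap between groups, with an exact permutation p of 0.1, two-sided, the smallest that 3 against 3 allow. Of 45 such share comparisons 6 reached this p, which 2 of the 20 splits of 3 against 3 give. The other 5 were shares of Cav1 (3) and Cav2 (2) that partly count the same transcripts. With sense transcripts alone Rtkn2 fell from the seventh to the ninth place among the members, at 31.1 FPKM, and its log2 difference was 0.03 (SE 0.10; limma, adjusted p = 0.989).

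Hopx (chr14:33354807-33362551, plus strand) was led by MSTRG.11277.1, an assembled transcript that starts upstream of the annotated one and carried 55.2% of the sum. MSTRG.11277.2, of 13066 bases, carried 20.02%, MSTRG.11277.3 13.6% and the annotated ENSRNOT00000049774 11.2%. MSTRG.11277.1 had 35.1, 29.4 and 34.0 FPKM in the control and 50.4, 31.0 and 25.2 FPKM in the model samples. The high value of model sample 1 for Hopx lay in this transcript. With the annotated transcript alone the Hopx difference was -0.22 (SE 0.23; limma, adjusted p = 0.974), the opposite sign of the sum.

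Ager (chr20:4363152-4366079, plus strand) was led by ENSRNOT00000084841, a transcript of 10 exons that carried 73.6% of the sum. It had 297, 256 and 199 FPKM in the control and 303, 233 and 253 FPKM in the model samples. Control sample 3 was the lowest and model sample 1 the highest, as for the gene, while model samples 2 and 3 stood in the opposite order. MSTRG.21329.7 followed at 35.0 FPKM over all samples. Ager shared its assembled locus with its neighbour Pbx2, and 2 assembled transcripts of 18 exons started upstream of it. In the model and in the control they summed to no more than 10.6 FPKM in a sample, so that they took a small part of the Ager sum.

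Clic5 (chr9:19121677-19372673, minus strand) was carried by 2 annotated transcripts, ENSRNOT00000079517 with 65.0% and ENSRNOT00000073667 with 21.3%. Pdpn (chr5:161947137-161981441, minus strand) had the annotated ENSRNOT00000020316 at 61.9% and the assembled MSTRG.29455.1, with 1 exon fewer, at 34.3%. The assembled share of Pdpn was 30.9% ± 5.79 in the control and 37.6% ± 6.07 in the model (SD, n = 3 each), and the groups overlapped. Emp2 (chr10:5433248-5467839, plus strand) and Cav2 (chr4:44573264-44580638, plus strand) each had a single leading annotated transcript.

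Cav1 (chr4:44597123-44630200, plus strand) had 1 annotated transcript, ENSRNOT00000078250. Its FPKM were 126, 112 and 113 in the control and 108, 102 and 111 in the model samples. Each model sample lay below each control sample, by a log2 difference of -0.13 (SE 0.12, 95% confidence interval -0.42 to 0.15), which did not pass (limma, adjusted p = 0.945). Its share of the Cav1 sum was 74.7% ± 0.379 in the control and 71.3% ± 1.96 in the model (SD, n = 3 each), without overlap, with an exact permutation p of 0.1. MSTRG.25322.2, an assembled Cav1 transcript, was at 0, 4.95 and 0 FPKM in the control and at 0, 11.98 and 8.29 FPKM in the model samples. It was thus listed at 0 in 3 of the 6 libraries, in both groups.

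Aqp5 (chr7:141249044-141252578, plus strand) had 2 transcripts over the same stretch, the annotated ENSRNOT00000084911 with 88.0% of the sum and the assembled MSTRG.33861.1 with 12.03%. MSTRG.33861.1, of 3 exons in place of 4, had 12.5, 12.5 and 9.51 FPKM in the control and 16.1, 17.4 and 13.9 FPKM in the model samples. Each model sample lay above each control sample. The means were 11.5 ± 1.72 and 15.8 ± 1.74 FPKM (SD, n = 3 each), a log2 difference of 0.43 (SE 0.14, 95% confidence interval 0.08 to 0.78; limma, adjusted p = 0.945), with an unadjusted p under 0.05. The annotated transcript had 108, 85.6 and 82.3 FPKM in the control and 109, 98.6 and 115 FPKM in the model samples, and its groups overlapped.

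Of the 47 member transcripts 45 passed the filter of FPKM above 0 in at least 3 of 6 samples, and 2 assembled Ager transcripts did not. Among the 45, 0 were called by p and fold, against 2.98% of the 64867 transcripts tested (1.22% higher and 1.76% lower). The Aqp5 transcript above was the only 1 with a limma p of at most 0.05, against 4.53%, and 0 had an adjusted p below 0.05, against 0.0277%. The groups did not overlap for 2 of 45, the Aqp5 transcript and the annotated Cav1 transcript, against 10.4% (4.12% higher and 6.29% lower in the model).

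Circular RNAs, formed from back-spliced exons (circRNA) or from introns (ciRNA), gave a second readout from the same libraries. Of 5216 circular RNAs of both kinds, 11 came from members, with 36 of 14904 reads. Rtkn2 hosted 9 of the 11, each a circRNA of exons, with 5, 6 and 2 reads in the control and 4, 10 and 7 reads in the model samples. Cav1 and Clic5 hosted 1 each, in both cases of the intronic kind (ciRNA) and with a single read, and the other 6 members had none, Ager included, although it had the highest FPKM. Model and control samples overlapped for Rtkn2, and 49 host genes had more back-splice reads.

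The circRNA circRNA464 joins 4 exons of Rtkn2 (chr20:21978047-21986948, minus strand) and was the only member circRNA with at least 10 reads. It had 3, 0 and 0 reads in the control and 0, 10 and 4 reads in the model samples. Control sample 1 lay above model sample 1, so the groups overlapped. The log2 fold change was 2.16 (edgeR quasi-likelihood test, adjusted p = 0.966), where 5.75% of the 226 circRNAs tested had p of at most 0.05. Without model sample 1 the log2 fold change was 2.89, with an unadjusted p under 0.05 (edgeR, adjusted p = 0.543). Without control sample 1 the controls were at 0 reads, and the fitted 5.34 then depends on the prior count of the fit and is no bound (edgeR, adjusted p = 0.823). Without model sample 2 fewer than 10 reads remained. circRNA1598, which joins 3 exons of Rtkn2 (chr20:21951779-21959614), had 0, 3 and 2 reads in the control and 2, 0 and 0 reads in the model samples.

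Other genes expressed in type 1 cells were counted beside the members. Of 25 names, 22 were measured, and Timp3, Lama3 and Ndnf had no annotated transcript in the table. Of the 22, 0 were called higher and 1 lower, against 0.687% and 0.838% of the genes tested, with 13 above and 9 below 0 and a median log2 difference of 0.041. The most abundant, Ahnak (a large scaffold protein of the cell membrane), had 358 ± 38.9 FPKM in the control and 395 ± 52.2 FPKM in the model (SD, n = 3 each), and Limch1 169 ± 19.0 and 155 ± 28.3 FPKM.

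The gene called lower was Akap5, which encodes an anchoring protein for protein kinase A. It had 52.1, 53.1 and 24.6 FPKM in the control and 17.2, 22.0 and 23.7 FPKM in the model samples. Each model sample lay below each control sample, as was so for 5.83% of the genes tested, but control sample 3 lay close to the model samples. The log2 difference was -0.94 (SE 0.30, 95% confidence interval -1.68 to -0.21; limma, adjusted p = 0.934). The call rested on an unadjusted p under 0.05 and was lost without control sample 1 (a log2 difference of -0.77; limma, adjusted p = 0.891), without control sample 2 (-0.76, adjusted p = 0.946) and without model sample 1 (-0.81, adjusted p = 0.924). Its 2 main transcripts differed in opposite directions. The assembled MSTRG.30940.1 had 51.5, 49.0 and 23.4 FPKM in the control and 10.1, 16.3 and 15.8 FPKM in the model samples, and the annotated ENSRNOT00000008416 had 0.608, 0.818 and 1.16 FPKM in the control and 4.37, 2.13 and 7.94 FPKM in the model samples. With annotated transcripts alone Akap5 was called higher, at 1.53 (limma, adjusted p = 0.972).

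Genes that act with the members were also measured. Among 8 genes of caveolae beside the caveolins, 0 were called, 6 were above 0 and the median log2 difference was 0.094, with Cavin1 at 81.4 ± 12.6 and 89.5 ± 4.92 FPKM and Cavin2 at 57.7 ± 5.48 and 60.9 ± 6.87 FPKM in control and model (SD, n = 3 each). Among ligands of Ager, 7 of 8 were measured and 0 called, with a median of 0.0042. The most abundant ligands were S100a6 at 216 ± 21.0 and 240 ± 14.0 FPKM and S100a4 at 40.5 ± 3.92 and 46.9 ± 3.10 FPKM. Among 10 regulators of the type 1 or alveolar epithelial state, 0 were called and the median was 0.0018, with Wwtr1 at 35.4 ± 1.48 and 35.5 ± 1.24 FPKM and Tead1 at 36.0 ± 2.64 and 36.0 ± 2.56 FPKM. Of the 10 regulators, 5 were above and 5 below 0, and 2 had an unadjusted p of at most 0.05, against 4.9% of the genes tested. They were Tead4 at 0.27 (limma, adjusted p = 0.934) and Klf2 at -0.25 (limma, adjusted p = 0.934), named after their values were seen, without reaching the fold. The groups did not overlap for 2 higher and 1 lower regulators, against 4.86% and 5.83% of the genes tested. Nkx2-1, the lung lineage factor, was at 41.4 FPKM in control sample 3 and between 5.01 and 10.8 FPKM in the other samples.

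Markers of other lung cells were summarised as lists. The 10 genes of type 2 cells had 9 above 0, 0 called and a median log2 difference of 0.160, with Sftpc (surfactant protein C) at 2880 FPKM in the control and 3466 FPKM in the model. Their summed log2 level ran from 71.5 to 74.9 in the control and from 73.7 to 75.1 in the model. The 10 genes of transitional epithelium had 7 above and 3 below 0, 0 called and a median of 0.143. Their summed level ran from 33.0 to 33.8 and from 33.2 to 35.1. Lgals3, named after its value was seen, had the highest log2 difference of this list, 0.29 (limma, adjusted p = 0.934), and the lowest was -0.29. It was the only 1 of the 10 with an unadjusted p of at most 0.05, against 4.9% of the genes tested. Endothelium, which shares caveolins, Clic5 and Emp2 with type 1 cells, had 8 of 10 names measured, 0 called and a median of -0.038, with summed levels from 46.8 to 49.0 and from 46.9 to 48.8. Lymphatic endothelium (6 genes, median 0.050, summed levels from 14.2 to 15.2 and from 14.9 to 15.9) and mesothelium (6 genes, median -0.015, from 5.89 to 8.77 and from 5.69 to 9.35), which share Pdpn, had 0 called.

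Fibroblast genes, 8 in number, had 0 called, 5 above and 3 below 0 and a median of 0.154. Col3a1 (a fibrillar collagen), named after its value was seen, had the highest log2 difference of the list, 0.30 (limma, adjusted p = 0.934). It was the only 1 of the 8 with an unadjusted p of at most 0.05, against 4.9% of the genes tested. The summed level of the 8 genes ran from 40.9 to 42.0 in the control and from 41.2 to 43.3 in the model. Macrophage genes (5 of 6 names measured, median -0.0059) and red blood cell genes (4 of 8, median 0.199) had 0 called, with summed levels from 14.2 to 17.6 and from 14.2 to 17.9, and from 22.1 to 24.2 and from 22.6 to 24.9. Most of the macrophage range lay in Cd68. It was at 1.30 FPKM in control sample 3 and 1.21 FPKM in model sample 2, against 20.7 to 22.8 FPKM in the other samples. Cardiac muscle genes had 5 of 6 tested and a median of 0.390, and Nppa was called higher at 0.0357 and 0.157 FPKM (limma, adjusted p = 0.934), which is near 0 in every sample. Their summed level ran from 4.01 to 4.80 in the control and from 3.86 to 12.4 in the model. The ranges of control and model overlapped for each of these lists, and their part in the member values was not tested.

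**Figure D5:**
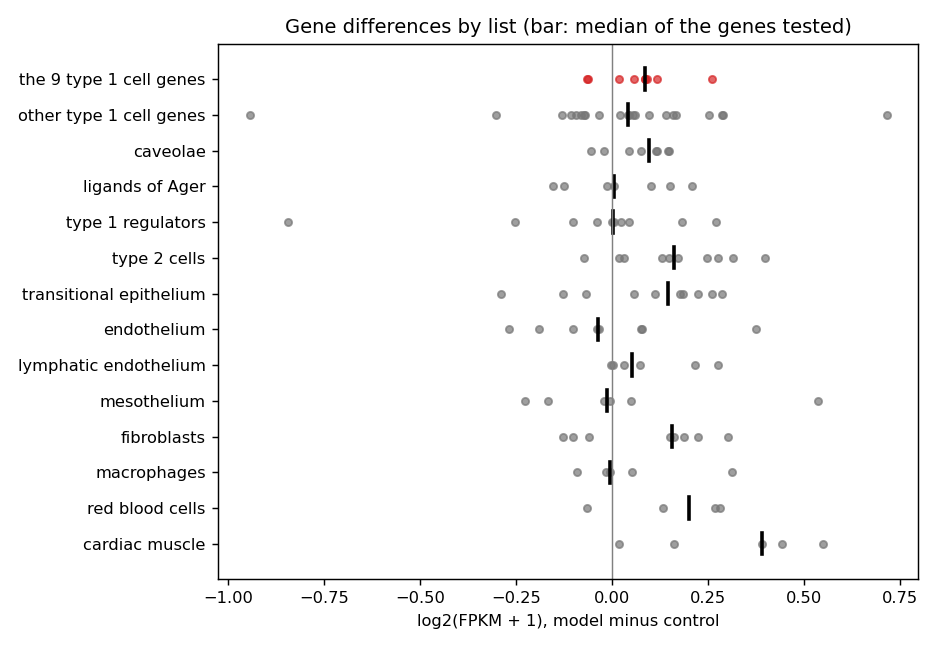
Difference in log2(FPKM + 1), model minus control, for each gene tested of the 9 type 1 cell genes (red) and of the 13 other lists (grey), with black bars at the median of each list. The 9 genes lie between -0.07 and 0.26, and in the list of other type 1 cell genes Akap5 lies farthest to the left at -0.94.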

How the data were processed

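Libraries from lung RNA of 3 control and 3 PF model rats were compared. Reads were trimmed with Cutadapt and mapped by the authors with Bowtie2 and Tophat2 (the submitters' processing notes name HISAT2, StringTie and TopHat). Transcripts were assembled with StringTie, and the authors deposited FPKM for each. The authors also deposited a coverage signal per transcript, from which reads were estimated, back-splice read counts from CIRCexplorer, and a normalized back-splice signal that was not used. The genome build is not given in the sources used here.

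Gene FPKM were plain sums over the transcripts of a gene name with at least 1 annotated transcript. A gene or transcript entered the test when 3 or more of the 6 samples had FPKM above 0. Model and control were compared on log2(FPKM + 1), a pseudocount of 1, with limma 3.58.1 (with trend) in R 4.3.3, two-sided, with Benjamini-Hochberg adjustment over all of them. The log2 differences understate changes of low genes. A feature was called when p was 0.05 or less and the group means of FPKM differed by 1 log2 unit or more, and calls by an adjusted p below 0.05 were counted beside them. CircRNAs with at least 10 reads were compared by the quasi-likelihood test of edgeR 4.0.16 with TMM, and DESeq2 1.42.0 served as the alternative tool. Shares were compared with exact permutation tests. The limma and edgeR tests were checked on simulated data. The changes put in were larger than the gene differences of the members, and the changed circRNAs had more reads than circRNA464. The check therefore does not cover such small changes or counts. Tables were handled with Python and pandas.

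The members, lists and tests were chosen with earlier results of these data known. The text names the members, their transcripts of at least 10% of the gene sum or called, genes of each list that were called or otherwise its 2 most abundant, the 5 genes of nearest profile among those with a mean of at least 1 FPKM, and member circRNAs with at least 5 reads. Tead4, Klf2, Nkx2-1, Lgals3, Col3a1, Myh6, the Akap5 transcripts and further member transcripts were added after their values were seen, and of lists of other cells not every abundant gene is given. Alternatives were other pseudocounts, filters, scalings, gene sums, and tests, a block by replicate number, and omission of each sample. A sum over sense transcripts alone was added after the data were seen.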

Additional observations from a re-analysis of the deposited data

How the results depend on the processing

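Each of the 19 alternatives to the gene test left 0 of 9 members called. Aqp5 stayed above 0 in all 19, from 0.18 to 0.37, with its lowest unadjusted p without control sample 1 (limma, adjusted p = 0.891). With TPM from all transcripts it was 0.35 with an unadjusted p under 0.05 (limma, adjusted p = 0.908). Each other member changed sign in 1 to 4 of the 19. The median of the members was 0.169 with TPM from all transcripts, where the median over the genes tested also rose, from -0.0064 to 0.0486. The members' median was 0.017 with annotated transcripts only, and ran from -0.0112 to 0.133 when 1 sample was left out.

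The count of called genes over the lists that go with the members, 1 (Akap5), was 0 with an F test on untransformed FPKM, 0 with TPM from all transcripts and from 0 to 1 when 1 sample was left out. Without control sample 2 the gene called was not Akap5 but Spock2, higher at 1.15 (limma, adjusted p = 0.946) against 0.71 over all 6 samples. The count over other cell types, 1 (Nppa), was 0 by limma without trend, 0 with a mean FPKM of at least 1 and from 0 to 1 when 1 sample was left out, with only the omission of control sample 1 keeping it. The count of called member transcripts ran from 0 to 1 when 1 sample was left out: MSTRG.25346.1 of Cav2 without control sample 1, MSTRG.25322.2 of Cav1 without model sample 1 and MSTRG.36496.1 of Clic5 without model sample 2. The log2 fold change of circRNA464 ran from 1.72 to 5.34 when 1 sample was left out, and was 2.38 with DESeq2 (adjusted p = 0.994).

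The deviations of same-numbered samples had r = 0.072, 0.033 and -0.066, inside the range of the other pairs (from -0.131 to 0.093). Such a check cannot tell whether same-numbered rats shared a cage, a day or a preparation, and no pairing was assumed. With a replicate block 0 of 9 members were called, 311 genes were called in place of 293, and circRNA464 had 1.96 (edgeR, adjusted p = 0.957). Over all genes, 519 were called with annotated transcripts only and 80 with a mean FPKM of at least 1. With TPM from all transcripts 58.4% of called genes were higher, against 45.0% with FPKM. Calls of Akap5 and Nppa rest on unadjusted p-values. With 3 rats per group, differences inside the intervals given above could not be resolved, and 1 member circRNA had enough reads for a test.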
